A study of Mus musculus with 24 samples.

Results

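The miR-322, miR-503 and miR-351 cluster is a row of microRNA (miRNA) hairpins on the mouse X chromosome, and 6 of its mature miRNAs were followed in the lung over 5 ages after birth: mmu-miR-322, mmu-miR-503, mmu-miR-351, mmu-miR-542-3p, mmu-miR-542-5p and mmu-miR-450a-5p, written here without the species prefix. They were found by the exact miRNA name in the array files, which gave 6 of the 650 miRNA names on the array, and all 6 were among the 322 miRNAs that could be tested. Levels came from 24 Agilent 1-colour miRNA arrays, 1 per biological replicate, hybridised with Cy3-labelled total RNA from whole lungs of healthy C57BL/6 mice. No treatment or altered allele is named, and the labels give no sex. There were 4 arrays at day 42 (labelled 6 weeks) and 5 each at day 14, day 7, day 4 and day 1. Although the series is titled as fetal, its sample labels all give postnatal ages, and these were used.

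A miRNA is cut from one arm of a hairpin RNA and guides a silencing complex to messages that pair with its seed, bases 2 to 8 of the mature strand. Several miRNAs often lie side by side and can be cut from one long transcript, while each mature strand is then kept or lost on its own. The mouse lung divides its air sacs into alveoli during the first weeks after birth, a period of fast cell division that slows before adulthood. miR-322, known in humans as miR-424, and miR-503 repress cell cycle genes, among them Cdc25a and D- and E-type cyclins.

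The mature sequences of the 6 miRNAs are shown, 5′ to 3′, because their seeds define which other lung miRNAs they should be set beside. The seed is in capitals, and the sequences are those of RefSeq for GRCm38.p6, matched by name.
miR-322: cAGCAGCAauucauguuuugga
miR-503: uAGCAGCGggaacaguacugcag
miR-351: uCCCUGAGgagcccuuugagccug
miR-542-3p: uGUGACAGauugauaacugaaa
miR-542-5p: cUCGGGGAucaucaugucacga
miR-450a-5p: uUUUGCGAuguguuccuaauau
In RefSeq, the seed of miR-322 is the one that miR-15a, miR-15b, miR-16, miR-195 and miR-497 carry, all made from other chromosomes. miR-503 differs from it only in the last seed base. The seed of miR-351 is that of miR-125a-5p and miR-125b-5p. The other 3 seeds occur in no other sequence matched here, of 17 names.

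In RefSeq (GRCm38.p6) the 7 hairpins lie on the minus strand of chromosome X within 6353 bases, and in the direction of transcription their order is Mir322, Mir503, Mir351, Mir542, Mir450-2, Mir450-1 and Mir450b. Mir322 (chrX:53054255-53054349), Mir503 (chrX:53053984-53054054) and Mir351 (chrX:53053255-53053353) all fall inside the long noncoding RNA gene C430049B03Rik (chrX:53053112-53057190). Mir542 (chrX:53049403-53049487) starts 3767 bases past Mir351, the widest gap in the row, and neither it nor the Mir450 hairpins fall inside that gene. Mir450-2 (chrX:53048299-53048367) and Mir450-1 (chrX:53048154-53048244) give the same miR-450a-5p, so their output cannot be told apart.

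Levels are given as scaled signal: the summed signal of a miRNA's probes, with each array brought to a common 75th percentile over the 228 miRNAs detected on all arrays. Tests were run on its log2 with limma over all 24 arrays, a miRNA was called at a Benjamini-Hochberg adjusted p under 0.05 over the 322 tested, and errors after ± are standard errors of that fit unless SD is named. A signal cannot be compared between different miRNAs, only between ages of the same one. All 6 miRNAs were detected on all 24 arrays. In whole-lung RNA, fewer cells of a type and less RNA per cell cannot be told apart.

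An array's 75th percentile before scaling ran between 923 and 4953, and the 5 dimmest arrays were day 1 replicates 1, 4 and 5 and day 4 replicates 1 and 3. Day 14 replicate 5 stood apart from its group. Of 170 miRNAs for which the other 4 day 14 arrays did not overlap day 7, it lay between the 2 ages in 104 and within the day 7 range in 47. Its Pearson correlation over the tested miRNAs was 0.980 with the mean of the other day 14 arrays and 0.988 with the day 7 mean. Several results that rest on these arrays are given with and without them.

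All 6 miRNAs were lower in the young adult lung than in the newborn lung. At day 42 against day 1, 6 of 6 were called lower, where 42.9% of all tested miRNAs were. In the authors' deposited table, after median or quantile scaling and when all names set the percentile, 4 of 6 were called, without miR-542-3p and miR-450a-5p. Only miR-351 was called without scaling. In the scaling used here, every day 42 array lay below every day 1 array for 4 of 6, where this held for 26.4% of all tested miRNAs. Their median log2 change was -1.43, beside -0.35 over all tested miRNAs. The F-test over the 5 ages called 6 of 6, where 65.5% of all tested miRNAs were called. No member was called between day 4 and day 1 or between day 7 and day 4, steps at which 1.55% and 0.311% of all tested miRNAs were called. The members then parted. Between day 14 and day 7, 3 of 6 were called lower (miR-322, miR-503 and miR-351), where 23.9% of all tested miRNAs were. For these 3 no array of one age overlapped the other age, where 25.2% of all tested miRNAs were lower without overlap. Of 14 other ways of processing, 11 kept the call of miR-322, 12 that of miR-503 and 13 that of miR-351. In 1 of them, with all names setting the percentile, miR-322 was not called and miR-542-5p was called higher. From day 14 to day 42 all 6 were called lower, where 28.0% were, and 5 of 6 without overlap, where 26.1% were. Over 14 other ways of processing, this last call was kept in 5 for miR-503 and 6 for miR-351, and in 13 or 14 for the other 4 members.

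**Figure D1:**
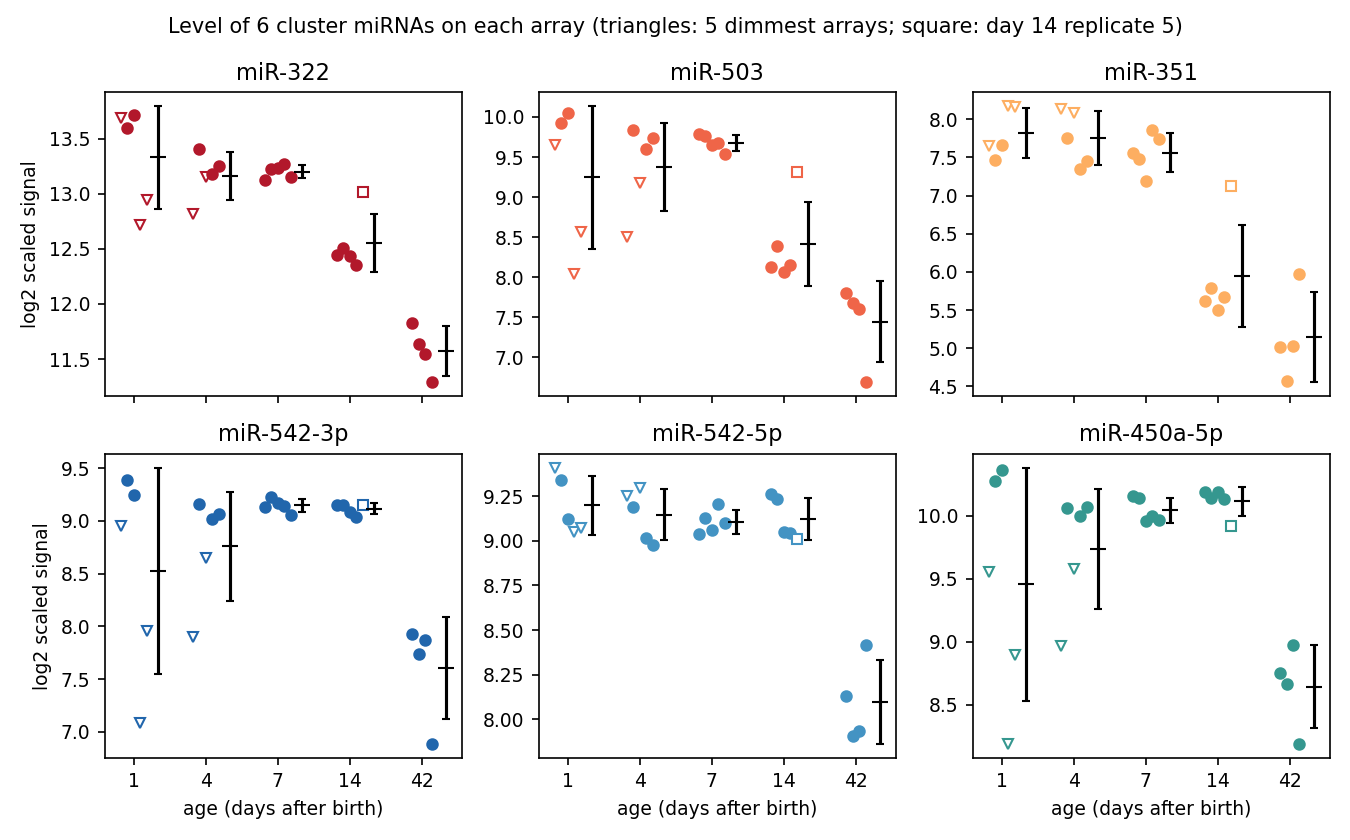
Log2 scaled signal of the 6 miRNAs on each array (points) against age in days, with the mean and SD of each age as a bar beside the points (n = 5, and 4 at day 42). miR-322, miR-503 and miR-351 lie lower at day 14 than at day 7, except that day 14 replicate 5 (open square) lies nearer to day 7, while miR-542-3p, miR-542-5p and miR-450a-5p lie at one height at day 7 and day 14 and lower at day 42; open triangles are the 5 dimmest arrays.

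miR-322 had scaled signals of 13181, 12411, 13404, 6719 and 7876 at day 1, of 7216, 10865, 9079, 9286 and 9761 at day 4, and of 8943, 9562, 9658, 9889 and 9084 at day 7. It had 5563, 5813, 5544, 5239 and 8265 at day 14, and 3639, 3177, 2983 and 2507 at day 42. The day 14 arrays all lay below the day 7 arrays, and the day 42 arrays all below those of day 14. The 2 low day 1 arrays are replicates 4 and 5, both among the 5 dimmest. The log2 change was -0.65 ± 0.18 at day 14 against day 7 (1.57-fold lower, limma adjusted p = 0.00686) and -0.98 ± 0.19 at day 42 against day 14 (1.97-fold lower, adjusted p = 0.000341). From birth to day 42 it came to -1.76 ± 0.19, 3.38-fold lower at day 42 than at day 1 (adjusted p = 2.98e-08). Without day 14 replicate 5 the day 14 step was -0.77 (adjusted p = 0.00154).

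miR-503, cut from the hairpin 200 bases from that of miR-322, had 801, 974, 1063, 264 and 379 at day 1, and 362, 917, 579, 779 and 852 at day 4. At day 7 it had 882, 869, 803, 818 and 742. It had 281, 336, 268, 284 and 638 at day 14, and 224, 205, 194 and 103 at day 42. The day 14 arrays again lay below all day 7 arrays, with replicate 5 far above its own group. The step to day 14 was -1.27 ± 0.34 on the log2 scale, 2.41-fold lower than at day 7 (limma adjusted p = 0.00596). The later step, day 42 against day 14, was -0.97 ± 0.37 (1.96-fold lower, adjusted p = 0.0451). That later call rested on single arrays: without day 14 replicate 5 it was -0.74 (adjusted p = 0.151), without day 42 replicate 4 it was -0.72 (adjusted p = 0.175), and it was also lost without day 14 replicate 2 or 4 or day 42 replicate 2 or 3. Over the whole span the change was -1.80 ± 0.37, 3.49-fold lower at day 42 than at day 1 (adjusted p = 0.000194).

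miR-351, which represses E2f3 in mouse muscle precursors, had the largest change of the 6 in the scaling used here. It had 201, 177, 202, 289 and 287 at day 1, 282, 216, 272, 163 and 175 at day 4, and 188, 178, 146, 232 and 214 at day 7. At day 14 it had 49.3, 55.5, 45.2, 51.1 and 140.3, and at day 42 it had 32.4, 23.7, 32.7 and 62.8. Day 14 lay below day 7 on every array, although replicate 5 came close to the lowest day 7 array, and day 42 replicate 4 lay above 4 of the 5 day 14 arrays. The change was -1.62 ± 0.28 at day 14 against day 7 (3.07-fold lower, limma adjusted p = 7.85e-05) and -2.68 ± 0.30 at day 42 against day 1 (6.39-fold lower, adjusted p = 3.99e-08). Without day 14 replicate 5 the day 14 step grew to -1.92 (adjusted p = 7.16e-07).

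The step between day 14 and day 42 was less certain for miR-351, at -0.80 ± 0.30 (adjusted p = 0.0431). Without day 14 replicate 5 it was -0.50 (adjusted p = 0.154), without day 42 replicate 2 it was -0.60 (adjusted p = 0.171), and the call was also lost without day 14 replicate 2 or day 42 replicate 1 or 3. Of its 4 probes, 2 gave almost no signal at either age, and the other 2 changed by -2.81 and -2.62 at day 42 against day 1.

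At day 14 against day 1 the same 3 miRNAs were the members called lower, where 32.6% of all tested miRNAs were. The log2 changes were -0.78 for miR-322 (adjusted p = 0.000989), -0.84 for miR-503 (adjusted p = 0.0452) and -1.88 for miR-351 (adjusted p = 5.88e-06). For miR-503 the ages overlapped, and the call was lost without any 1 of day 1 replicates 1, 2 and 3 or of day 14 replicates 1, 2, 3 and 4, down to -0.63 without day 1 replicate 3 (adjusted p = 0.124). Of the 5 day 1 arrays, 3 are among the dimmest. Without the 5 dimmest arrays the changes of miR-322, miR-503 and miR-351 were -1.10, -1.58 and -1.62. Without day 14 replicate 5 they were -0.90, -1.06 and -2.17. When all names set the percentile, the median of all tested miRNAs was 0.21 instead of -0.17, 2 members (miR-322 and miR-351) were called lower and the 3 from outside C430049B03Rik were called higher. Those 3 were also called higher without scaling, where only miR-351 was called lower. With median scaling miR-542-3p and miR-450a-5p were called higher, and miR-542-3p was after quantile normalization and in the deposited table. The call of miR-503 was kept in 9 of 14 other ways of processing.

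The other hairpins behaved differently between day 7 and day 14. miR-542-3p, which represses the gene of the cell division protein survivin in human cells, had 494, 668, 607, 136 and 249 at day 1 and 238, 573, 402, 517 and 535 at day 4. It had 562, 600.3, 577, 564 and 532 at day 7, and 568, 569.9, 544, 525 and 569 at day 14. At day 42 it had 243, 214, 234 and 118. Day 7 and day 14 covered the same narrow range, and every day 42 array lay well below it. The log2 change was -0.03 ± 0.33 at day 14 against day 7 (adjusted p = 0.953) and -1.51 ± 0.35 at day 42 against day 14, 2.85-fold lower (limma adjusted p = 0.00146).

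miR-542-5p comes from the opposite arm of the same hairpin and was the steadiest of the 6 up to day 14. It had 681, 648, 557, 530.2 and 538 at day 1, 609.5, 584, 630.1, 519 and 503 at day 4, and 525, 559, 534, 592 and 549 at day 7. It then had 615, 603, 531, 529 and 516 at day 14, and 280.1, 239.6, 245 and 342 at day 42. The first 4 ages overlapped one another, and day 42 stood apart from all of them. The change was 0.02 ± 0.11 at day 14 against day 7 (adjusted p = 0.935), -1.03 ± 0.12 at day 42 against day 14 (limma adjusted p = 1.09e-06) and -1.10 ± 0.12 at day 42 against day 1, 2.15-fold lower (adjusted p = 3.74e-08).

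miR-450a-5p had 751, 1238, 1319, 292 and 476 at day 1, 499, 1071, 763, 1021 and 1071 at day 4, and 1142, 1132, 993, 1022 and 999.5 at day 7. It had 1166, 1129, 1168, 1122 and 967 at day 14, and 432, 406, 502 and 292 at day 42. As with miR-542-3p, day 7 and day 14 overlapped and day 42 lay below both. The change was 0.07 ± 0.30 at day 14 against day 7 (adjusted p = 0.881) and -1.47 ± 0.32 at day 42 against day 14, 2.77-fold lower (limma adjusted p = 0.000945).

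For miR-542-3p and miR-450a-5p the comparison of day 42 with day 1 gave a smaller change than that with day 14, and 2 of the dim day 1 arrays, replicates 4 and 5, were the lowest of their age. The changes were -0.92 ± 0.35 (adjusted p = 0.0252) and -0.81 ± 0.32 (adjusted p = 0.0321), and the ages overlapped. Both calls were lost when 1 array was left out: day 1 replicate 1, 2 or 3 or day 42 replicate 4 for miR-542-3p, down to -0.68 (adjusted p = 0.103), and these or day 42 replicate 2 for miR-450a-5p, down to -0.58 without day 1 replicate 3 (adjusted p = 0.103). Without the 5 dimmest arrays the changes were -1.71 and -1.67 (adjusted p = 8.19e-07 and 6.33e-08).

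**Figure D2:**
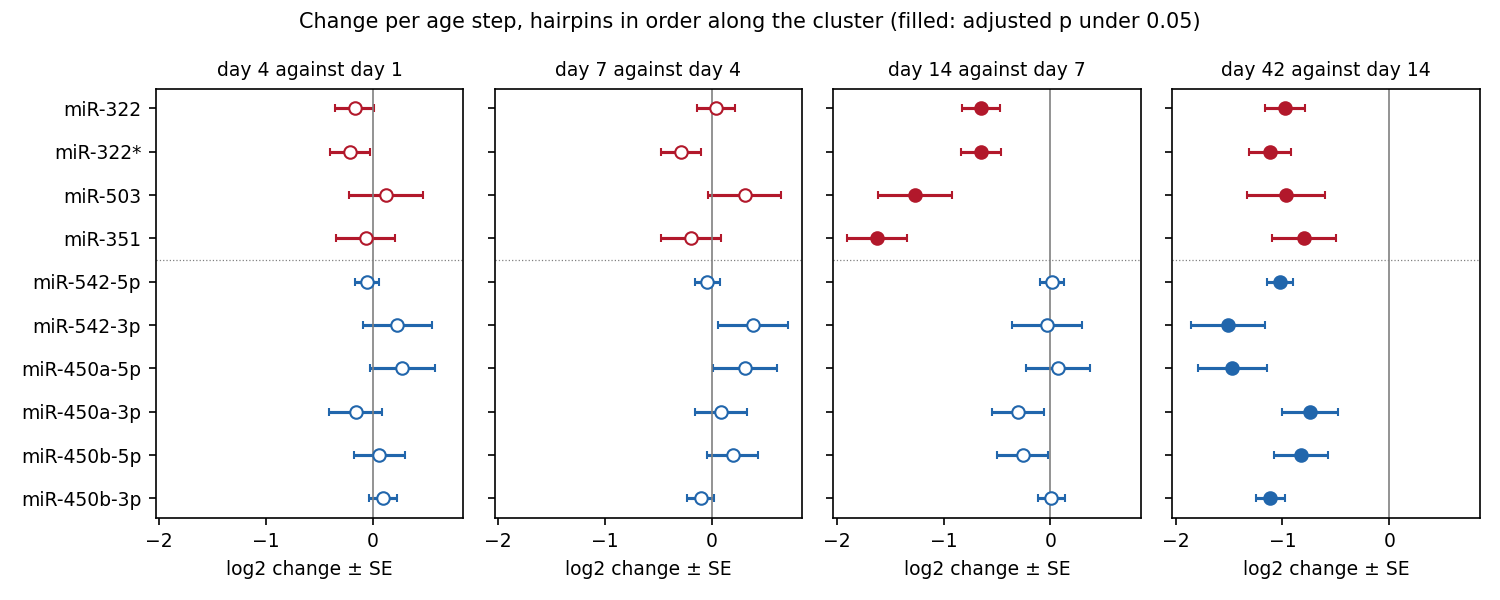
Log2 change ± SE from limma at each of the 4 consecutive age steps for the 10 tested mature arms of the cluster, with hairpins from top to bottom in the order of transcription (filled points: adjusted p under 0.05; the dotted line separates hairpins inside C430049B03Rik, red, from the others, blue). No arm was called at the first 2 steps, the 4 arms above the line were called lower at day 14 against day 7, and all 10 were called lower at day 42 against day 14.

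The remaining mature arms of the cluster were tested singly and not against each other. Of 6 listed arms, 5 were on the array and 4 could be tested. All 4 were called lower at day 42 against day 14, and only miR-322* at day 14 against day 7, where 28.0% and 23.9% of all tested miRNAs were. Over 14 other ways of processing, the call of miR-322* at day 14 was kept in 8 and its change reached -0.012, and the calls at day 42 against day 14 were kept in 7 for miR-450a-3p, 8 for miR-450b-5p and 13 each for miR-450b-3p and miR-322*. miR-322*, the opposite arm of the miR-322 hairpin, had 388, 395, 385, 444 and 454 at day 7, 255, 297, 232, 221 and 319 at day 14, and 127, 92.6, 98.9 and 184 at day 42. These 3 ages did not overlap. Its change was -0.65 ± 0.19 at day 14 against day 7 (limma adjusted p = 0.00828), and -2.27 ± 0.20 at day 42 against day 1 (4.81-fold lower, adjusted p = 6.36e-10). The first value rounds to the change of miR-322 itself in the scaling used. With log2 brightness as a covariate the day 14 against day 7 changes were -0.43 for miR-322* and -0.77 for miR-322.

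Of the consecutive steps, both arms of the last hairpin, Mir450b, were called lower at the final one. With brightness as a covariate, miR-450b-5p was also called lower at day 14 against day 7, at -0.48 (limma adjusted p = 0.0335). miR-450b-3p had 332, 312, 325, 348 and 338 at day 7, 343, 356, 327, 315 and 324 at day 14, and 164, 140.0, 141 and 173 at day 42, a change of 0.01 ± 0.13 at day 14 and of -1.11 ± 0.14 at day 42 against day 14 (limma adjusted p = 1.44e-06). miR-450b-5p changed by -0.26 ± 0.24 at day 14 against day 7 (adjusted p = 0.478) and by -0.83 ± 0.25 at day 42 against day 14 (adjusted p = 0.0145). That last call was lost without day 42 replicate 4, at -0.67 (adjusted p = 0.0605). miR-450a-3p was dim, detected on 1 of 4 arrays at day 42 and on 5 of 5 at day 14, and changed by -0.74 ± 0.26 (adjusted p = 0.0324), a call lost without any 1 of 6 arrays, down to -0.59 without day 42 replicate 1 (adjusted p = 0.127). miR-503* was detected on no array.

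Whether the members changed by different amounts was tested directly. The difference of 2 members was taken within each array, which removes a scale common to all miRNAs of the array, and its shift between ages was put to an exact two-sided permutation test for all 15 pairs of the 6 miRNAs, with Benjamini-Hochberg adjustment over the 15. At day 14 against day 7, a comparison added after the levels had been seen, 11 of 15 pairs differed. They included all 9 pairs of a member inside C430049B03Rik with one outside it. The differences in change for miR-322, miR-503 and miR-351 against miR-542-3p were -0.62, -1.24 and -1.59 on the log2 scale (exact adjusted p = 0.0132 each). All 9 were also called without day 14 replicate 5, when 13 of 15 pairs were. The difference within an array still carries any unequal dependence on brightness: with log2 brightness as a covariate in the fit of each miRNA, the same 3 differences from miR-542-3p were -0.40, -1.20 and -0.98, values that were not tested. The pairs reuse the same 6 miRNAs, so their calls are not separate results. Of the 322 tested miRNAs, 101 were called in either direction at this step, and how often pairs of other miRNAs differ was not counted. The split at the gene boundary was noticed in these values and has no test of its own.

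Within the early group the sizes differed as well. miR-322 fell less than miR-503 by 0.62 (exact adjusted p = 0.0132) and less than miR-351 by 0.97 (exact adjusted p = 0.0238). The pair of miR-503 and miR-351 differed by 0.35, which was not called (exact adjusted p = 0.0694), but without day 14 replicate 5 the difference was 0.42 and was called (exact adjusted p = 0.0198). The order by size depended on the processing. With log2 brightness as a covariate miR-503 changed by -1.56 and miR-351 by -1.34, a difference that was not tested. With normexp they changed by -0.73 and -0.04, and miR-322 also fell more than miR-351. Among miR-542-3p, miR-542-5p and miR-450a-5p no pair was called over all arrays (exact adjusted p of 0.266 to 0.476). Without day 14 replicate 5, the change of miR-542-3p minus that of miR-450a-5p was -0.16 and was called (exact adjusted p = 0.0275), and the other 2 pairs of these 3 members were not called.

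Over the whole span, day 42 against day 1, 3 of 15 pairs differed. The change of miR-503 was lower than that of miR-542-3p by 0.88 and than that of miR-450a-5p by 0.99, and that of miR-351 was lower than that of miR-542-5p by 1.57 (exact adjusted p = 0.0397 each). These calls sat at the smallest p that 4 against 5 arrays allows, 0.00794 before adjustment, and none was called once any 1 array was left out, which raises the smallest p that can be reached.

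**Figure D3:**
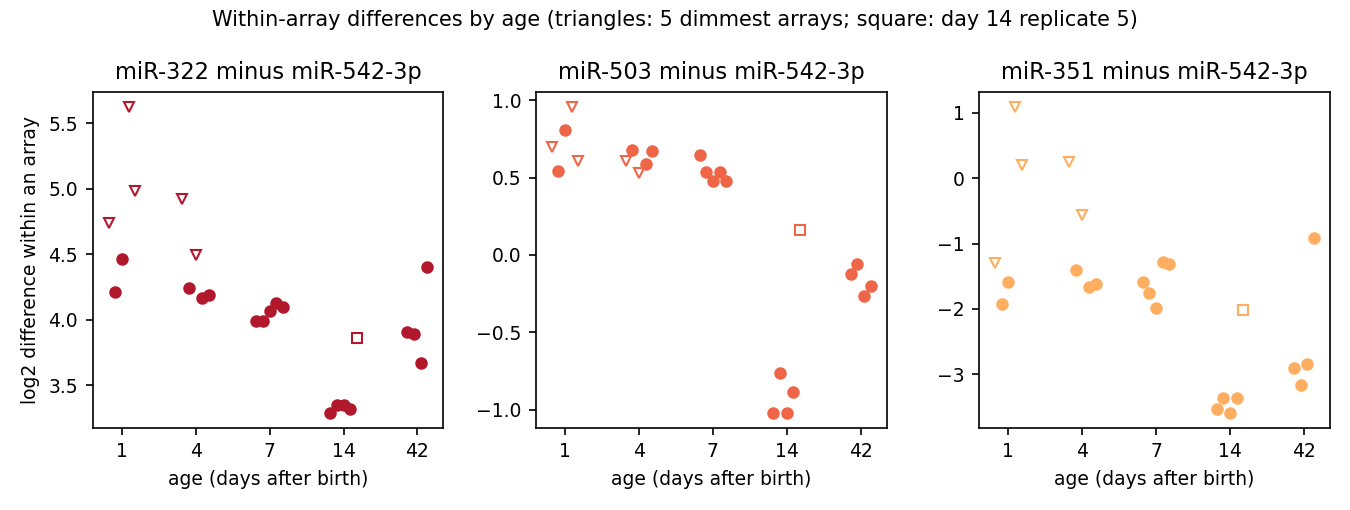
Log2 difference of miR-322, miR-503 and miR-351 from miR-542-3p within each array, by age in days (1 point per array; open triangles, 5 dimmest arrays; open square, day 14 replicate 5). All day 14 points lie below all day 7 points in each panel, and at day 42 the differences lie above those of 4 of the 5 day 14 arrays.

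The seed relatives, made from other chromosomes, took a different course. For miR-322 and miR-503 they are miR-15a, miR-15b, miR-16, miR-195 and miR-497, which like miR-322 repress cyclins and other cell cycle genes. For the comparison, these mature sequences carry the seed of miR-322 and differ after it.
miR-322: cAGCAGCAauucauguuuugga
miR-15b: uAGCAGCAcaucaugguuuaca
miR-16: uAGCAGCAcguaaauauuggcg
miR-195: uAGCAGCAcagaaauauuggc
miR-497: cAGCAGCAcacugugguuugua
Read base by base from the 5′ end, miR-322 shares 16 of 22 bases with miR-15b and 12 of 22 with miR-16. Whether the probes keep these sequences apart was not tested.

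Between day 42 and day 1, 2 of the 5 relatives rose, 1 fell and 2 were not called. Of all tested miRNAs, 61.8% were called in either direction and 42.9% lower. miR-195 had 8301, 8001, 7432 and 9299 at day 42, against 3927, 2912, 3517, 2241 and 2819 at day 1, a rise of 1.44 ± 0.14 on the log2 scale (2.72-fold, limma adjusted p = 3.26e-09). miR-497, its neighbour on chromosome 11, rose by 0.99 ± 0.13 (adjusted p = 6.42e-07), and the ages did not overlap for either. miR-15b fell by 0.59 ± 0.18 (adjusted p = 0.00720), with overlapping ages. miR-16 changed by 0.07 ± 0.13 (adjusted p = 0.640) and miR-15a by 0.45 ± 0.26 (adjusted p = 0.142).

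Taken within each array, miR-322 minus the mean of the 5 relatives averaged -1.27 ± 0.24 at day 42 and 0.96 ± 0.24 at day 1 (SD, n = 4 and 5), a shift of -2.23 (exact two-sided permutation p = 0.00794, the smallest this design allows). For miR-503 the shift was -2.28 (exact p = 0.00794). The shifts at day 14 against day 7 were -0.73 for miR-322 and -1.35 for miR-503 (exact p = 0.00794 each). Between day 4 and day 1, miR-322 already stood 0.58 lower relative to these relatives (exact p = 0.00794), while its own level was not called to differ and miR-195 and miR-497 had risen. Over the 18 tests of this kind, for the 3 miRNAs and 6 comparisons, the smallest p corresponds to a Benjamini-Hochberg adjusted p of 0.0119. The 2 tests of day 42 against day 1 for miR-322 and miR-351 were planned, and the other tests were added.

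For miR-351, of its 2 relatives with the same seed, 1 was called higher and 1 lower at day 42 against day 1. Among all tested miRNAs 61.8% were called in either direction and 42.9% lower. miR-125b-5p, abundant in many tissues and a repressor of p53 in human cells, had 15764, 12784, 12351 and 29413 at day 42, against 6674, 8042, 5341, 10574 and 8470 at day 1, a rise of 1.11 ± 0.26 (limma adjusted p = 0.000718). miR-125a-5p changed by -0.74 ± 0.26 (adjusted p = 0.0155), with overlapping ages, but by 0.082 with brightness as a covariate and by 0.27 without scaling, and its call was kept in 7 of 14 other ways of processing. miR-351 minus their mean shifted by -2.86 at day 42 against day 1 and by -1.89 at day 14 against day 7 (exact two-sided permutation p = 0.00794 each).

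**Figure D4:**
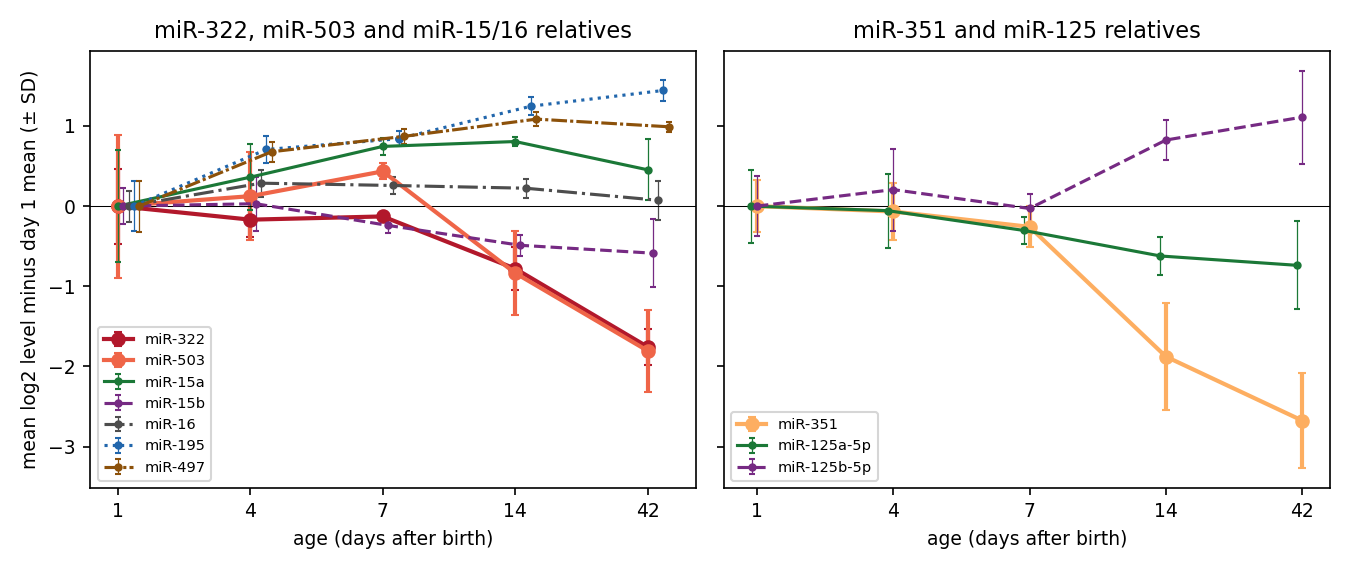
Mean log2 level minus the day 1 mean (± SD of the arrays of an age, n = 5, and 4 at day 42) against age in days, for miR-322 and miR-503 with their 5 seed relatives (left) and for miR-351 with its 2 (right). miR-322, miR-503 and miR-351 end at -1.76, -1.80 and -2.68, while miR-195 and miR-125b-5p end at 1.44 and 1.11.

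Brightness of the array moved with the levels within an age, in opposite directions for different members. Per doubling of an array's 75th percentile, the log2 level within ages rose by 0.91 for miR-542-3p, 0.87 for miR-450a-5p, 0.80 for miR-503 and 0.32 for miR-322, and changed by -0.15 for miR-542-5p, -0.60 for miR-322* and -0.74 for miR-351 (24 arrays, a description). Later ages were brighter on average, with a mean 75th percentile of 1539 for day 1, 1957 for day 4 and 2418 for day 7, and of 3239 for day 14 and 3104 for day 42. With log2 brightness as a covariate, all 6 were called lower at day 42 against day 1, at -2.08 for miR-322, -2.61 for miR-503, -1.93 for miR-351, -1.83 for miR-542-3p, -0.95 for miR-542-5p and -1.68 for miR-450a-5p. The step at day 14 against day 7 was -0.77, -1.56 and -1.34 for miR-322, miR-503 and miR-351, all called, and -0.37, 0.07 and -0.25 for miR-542-3p, miR-542-5p and miR-450a-5p, none called.

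The 24 arrays lay on 3 slides, and each slide held all 5 ages. Within single slides, the day 14 against day 7 change of miR-322, miR-503 and miR-351 ran from -2.06 to -0.51 over the 9 values, and that of the other 3 members from -0.05 to 0.12. For day 42 against day 14 the 18 values ran from -2.23 to -0.34, and at day 42 against day 1 they ran from -3.35 to -0.20. All of these changes within slides were below 0 except for the later group at day 14. The members share the arrays of a slide, 1 or 2 per age, so these values are not separate replicates. The calls within single slides, of 8 arrays each, are given with the other alternatives.

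The scaling sets the size of every change. Over all tested miRNAs the median change at day 42 against day 1 was -0.35 in the scaling used, 0.30 when all names set the percentile, 0.19 after quantile normalization, 0.31 in the authors' deposited log2 table and 0.64 without scaling. The share of calls that were lower was 69.3% in the scaling used, 38.4% when all names set the percentile, 48.7% with median scaling, 43.5% after quantile normalization, 39.8% in the deposited table, 28.6% without scaling and 83.9% with normexp background correction. miR-322, miR-503 and miR-351 were lower at day 42 than at day 1 under all 9 ways of processing plotted, between -2.08 and -0.75 for miR-322, -2.61 and -0.80 for miR-503, and -2.68 and -1.56 for miR-351. Without scaling, miR-351 alone was called. The changes of miR-322 and miR-503 were then -0.75 and -0.80 and were not called (limma adjusted p = 0.111 and 0.227). Nor were those of miR-542-5p (-0.098), miR-542-3p (0.08) and miR-450a-5p (0.19). The order of the members by size differed between scalings. With normexp the day 14 against day 7 change of miR-351 was -0.04, that of miR-503 was -0.73 and that of miR-322 was -0.67, and none was called.

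**Figure D5:**
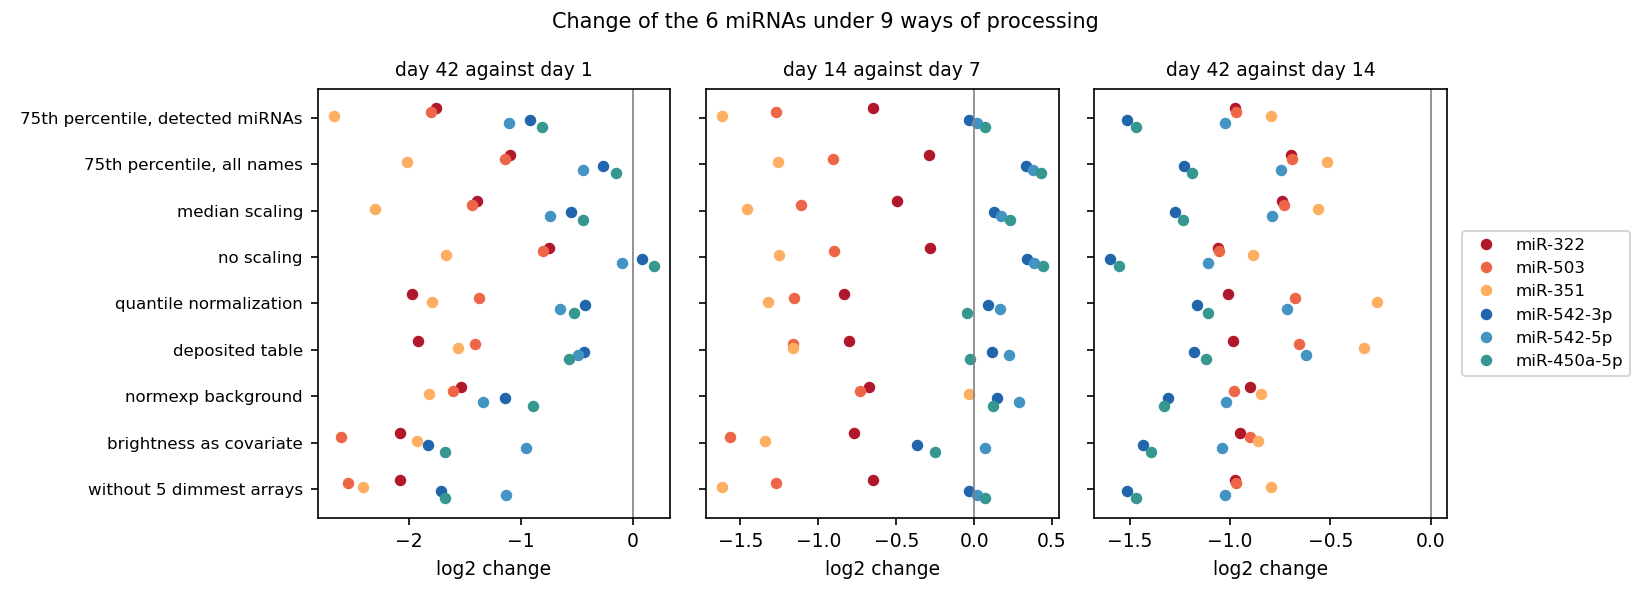
Log2 change of the 6 miRNAs (colours) for 3 comparisons under 9 ways of processing (rows; the top row is the scaling used in the text). At day 14 against day 7, miR-322, miR-503 and miR-351 lie left of the other 3 members in all 9 rows, though miR-351 only reaches -0.04 with normexp; at day 42 against day 14 all points lie left of 0.

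Markers of other cells moved over the same ages, and their part in these results was not tested. The summed signal of 5 miRNAs of mesenchyme and smooth muscle (miR-143, miR-145, miR-199a-3p, miR-199a-5p and miR-214) ran from 18790 to 25067 at day 1, from 20911 to 25852 at day 4, from 20468 to 23744 at day 7, from 16027 to 19624 at day 14 and from 11990 to 14732 at day 42. Of these 5, 3 were called lower at day 42 against day 1 (miR-199a-3p, miR-199a-5p and miR-214) and 2 at day 14 against day 7. Of all tested miRNAs, 42.9% and 23.9% were called lower at these comparisons. miR-143 and miR-145 did not fall by day 42, with changes from day 1 of 0.03 and 0.0006 that were not called. At day 14 against day 1 miR-143 was called higher, at 0.51 (limma adjusted p = 0.00768). At day 42 against day 1 the 5 leukocyte miRNAs were all called higher, with a sum of 9980 to 13383 at day 42 and 4052 to 7480 at day 1. So were both miR-126 arms, which mark endothelium. Of all tested miRNAs, 61.8% were called in either direction at this comparison, and 42.9% were called lower. The 7 epithelial miRNAs summed to 14816 to 17143 at day 42 and 12509 to 16064 at day 1, and each was detected on some array at every age. Between these 2 ages miR-200a (0.68) and miR-203 (0.72) were called higher, miR-205 (-1.68) was called lower and 4 were not called. The 3 red blood cell miRNAs summed to 37581 to 84618 at day 42 and 23621 to 64076 at day 1, and none was called. The 7 striated muscle miRNAs summed to at most 3862 at day 42 and to as much as 37912 on a day 1 array, with miR-206 detected on no array of either age. Of the 4 that could be tested, miR-208b was called lower at day 42 (-2.25, limma adjusted p = 0.0105) and 3 were not called.

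Other miRNAs listed for the X chromosome were counted for comparison. Of 23 listed names, 19 were on the array and 16 were tested. In all, 8 of 16 were called lower and 2 higher at day 42 against day 1, where 61.8% of all tested miRNAs were called in either direction, and their median change was -0.41, beside -0.35 over all tested. The step from day 7 to day 14 called 3 of 16 lower, and that from day 14 to day 42 1 of 16, where 23.9% and 28.0% of all tested miRNAs were. let-7f in this list also has a copy on chromosome 13.

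The miRNAs outside the cluster whose log2 levels followed the members most closely over the 24 arrays, among 220 detected on all arrays, were miR-377, miR-18a and miR-300 for miR-322 (Pearson r of 0.986, 0.981 and 0.979). For miR-503 they were miR-18a, miR-301a and miR-20a (r of 0.976, 0.970 and 0.958), and for miR-351 they were miR-106b*, miR-17 and miR-296-5p (r of 0.982, 0.965 and 0.958). The same measure, extended to the later group after its values were seen, put miR-218 first for both miR-542-3p and miR-450a-5p (r of 0.957 each). miR-218 changed by -0.07 at day 14 against day 7 and by -2.01 at day 42 against day 14. These correlations hold age and array brightness in common and carry no p.

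Among the members themselves, miR-322 and miR-503 correlated at r = 0.943 over the 24 arrays and at 0.958 once each age's mean was taken off, and miR-542-3p and miR-450a-5p at 0.981 and 0.962. The 2 arms of Mir542 correlated at 0.600 over all arrays but at -0.01 within ages, and miR-322 and miR-322* at 0.821 and -0.39. For both hairpins the 2 arms had slopes of opposite sign on array brightness within ages.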

How the data were processed

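The deposited scanner files give an intensity for every spot, extracted per the file headers with Agilent Feature Extraction 10.7.1.1 and background-subtracted per spot by that software; 100 ng of total RNA was labelled, per the labels' protocols. The deposited series table holds log2 values for 672 names with the same median, 2.41, in every column; how the authors scaled it is not given in the sources used here, and it served as an alternative. The number of arrays limits the precision.

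Spots of each probe were averaged after 319 to 523 outlier spots per array were left out, and a miRNA's probes were summed. Each array was then scaled so that its 75th percentile, over 228 miRNAs seen on the full set of arrays, was the same. Values under a floor of 7.24 were set to it, and log2 was taken. The 322 miRNAs with full detection in 1 age or more were fitted in limma 3.58.1 (R 4.3.3) with 5 age groups, 19 residual degrees of freedom and no covariate, called at an adjusted p under 0.05; all tests were two-sided. The fit was tested on simulated data. Within-array differences were tested by exact permutation of arrays, enumerated in Python. Tables used Python 3.11.15, pandas 2.3.3 and numpy 2.4.6, and figures matplotlib 3.10.9.

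The miRNAs named are all 6 members, the other arms of the hairpins, their seed relatives, other X-linked miRNAs and, for miR-322, miR-503 and miR-351, the 3 most alike by correlation. Members and lists were chosen with earlier results of these data known. Mature sequences were matched by name for 17 of 17 names. No arrays were identical; correlations of arrays within an age ran from 0.882 to 0.998. Replicate numbers are shared by the ages but do not pair the arrays. Alternatives covered scaling, background, floor, probes, filter, slide, brightness, replicate block and leaving out arrays. The normexp alternative used the median spot signal with an offset of 50, where the plan named the mean.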

Additional observations from a re-analysis of the deposited data

Results flagged for a closer look

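Day 14 replicate 5 lay far from the other 4 day 14 arrays for 4 of the 6 miRNAs: the gap to the nearest array, as a share of the group's range, was above Dixon's 95% critical value. Its log2 level was 13.01 for miR-322 (12.36 to 12.51 on the others), 9.32 for miR-503 (8.07 to 8.39), 7.13 for miR-351 (5.50 to 5.79) and 9.92 for miR-450a-5p (10.13 to 10.19). For miR-322, miR-503 and miR-351 it lay on the side of the day 7 levels. In all, 30 groups of arrays were checked and 4 stood out, while chance alone gives about 1 in 20. All 4 are the same array, so they are not separate events to set against that rate. Without this array the day 14 changes of miR-322, miR-503 and miR-351 were larger and the later changes of miR-503 and miR-351 were not called.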

How the results depend on the processing

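Calls of members changed with the scaling and the background, and fewer were made within single slides, where 8 arrays leave 1 or 2 per age. With slide as a block over all arrays, 6, 3, 3 and 5 members were called at day 42 against day 1, day 14 against day 1, day 14 against day 7 and day 42 against day 14. At day 42 against day 1, 4 of 6 were called with median scaling, with all names setting the percentile, after quantile normalization, in the deposited table, with no filter and from the 2 ages alone, 1 without scaling, and 3 and 2 within slides 1 and 3. At day 14 against day 1, 5 were called when all names set the percentile (2 lower and 3 higher), 1 with normexp and 0 within slide 3. At day 14 against day 7, 1 was called without scaling, 0 with normexp, 1 within slide 1 and 0 within slide 3. At day 42 against day 14, 4 were called with median scaling, with all names setting the percentile, after quantile normalization, in the deposited table, with normexp, from the brightest probe and with no filter, 2 without scaling, and 0, 3 and 1 within slides 1, 2 and 3. By the F-test, 1 and 0 were called within slides 1 and 3. Split by direction, lower and higher calls at day 14 against day 1 were 2 and 2 with median scaling and 1 and 3 without scaling. They were 2 and 1 after quantile normalization and 3 and 1 in the deposited table. At day 14 against day 7, with all names setting the percentile, miR-503 and miR-351 were called lower and miR-542-5p higher, while miR-322 was not called. Leaving out 1 array gave 4 to 6 called at day 42 against day 1, 2 to 4 at day 14 against day 1, 0 to 0 at both early steps, 3 to 3 at day 14 against day 7, 4 to 6 at day 42 against day 14 and 6 to 6 by the F-test. Pairs differing at day 42 against day 1 numbered 6 after quantile normalization, 6 in the deposited table, 0 with normexp, 0 without the 5 dimmest arrays and 0 to 0 when 1 array was left out. At day 14 against day 7 they numbered 6 with normexp and 11 to 13 when 1 array was left out. Without the 5 dimmest arrays the shifts against seed relatives were -2.44 for miR-322 and -2.93 for miR-351 (exact p = 0.0667, the smallest that 4 against 2 arrays allows).

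Signs changed without scaling for miR-322 and miR-503 at day 14 against day 1 (0.31 and 0.25), for miR-542-5p there (1.01, and 0.30 when all names set the percentile), and at day 42 against day 1 for miR-542-3p (0.084), miR-450a-5p (0.19), miR-450b-5p (0.18), miR-15b (0.42) and miR-125a-5p (0.27). At day 42 against day 1 they also changed after quantile normalization for miR-450a-3p (0.11), miR-450b-5p (0.27) and miR-16 (-0.25), in the deposited table for miR-450a-3p (0.16) and miR-450b-5p (0.44), when all names set the percentile for miR-15b (0.073), and for miR-125a-5p with brightness as a covariate (0.082) or within slide 3 (0.094). Within slide 3, miR-450a-3p changed by 0.26 at day 42 against day 14. The causes were not tested.

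Replicate numbers shared by the ages did not pair the arrays: the median correlation of deviations was -0.02 for the same number, against -0.01 for other numbers, and 2 of 24 arrays correlated best with their own number. With the replicate block, 6 members were called at day 42 against day 1, 3 at day 14 against day 1, 3 at day 14 against day 7 and 4 at day 42 against day 14. Signal over background limits miR-351, miR-450a-3p and miR-503*.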
